A study of Rattus norvegicus with 15 samples.

Results

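The IGF and growth hormone axis was followed through 10 genes, Ghr, Igf1, Igf2, Igfals, Igfbp1, Igfbp2, Igfbp3, Igfbp4, Igfbp5 and Igfbp7, taken by symbol from the 32623 genes of the count table of rat livers. Each symbol matched a single row. In the liver, growth hormone binds its receptor on hepatocytes and activates the kinase Jak2 and the transcription factors Stat5a and Stat5b, which raise the expression of Igf1 and Igfals. Most IGF in the blood travels in a ternary complex with the acid-labile subunit (Igfals) and Igfbp3, while the other IGF binding proteins hold smaller pools and are released under other conditions. The liver is the main source of circulating IGF1, and low circulating IGF1 is a known feature of human cirrhosis.

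Control rats were male Wistar rats without CCl4, phenobarbital or eplerenone. Rats of the cirrhosis group inhaled CCl4, a hepatocyte poison, for 12 weeks and had phenobarbital (0.35 g/L) in the drinking water throughout. The cirrhosis & eplerenone group had the same CCl4 and phenobarbital and, from week 8, eplerenone at 100 mg/kg body weight by mouth in a hazelnut spread, a blocker of the mineralocorticoid receptor. All rats were age-matched and weighed 75 to 100 g at the start. Livers of the CCl4-treated rats were taken 7 to 10 days after the last CCl4, and no such interval applies to the controls. CCl4 and phenobarbital cannot be told apart, since no group had only 1 of them. Animals were picked for sequencing by how well cirrhosis or treatment had succeeded, which limits the groups as a model of all treated rats. The table held 4 control, 5 cirrhosis and 5 cirrhosis & eplerenone livers. The labels list 1 more control, replicate 1, which the study set aside and which was not used here.

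Between 16157491 and 21574767 reads per liver were counted on genes, and levels are given as FPM, the read count over the library size scaled by TMM. On this scale 3 counts stand for 0.121 to 0.191 FPM, a floor that covers counting error only. A gene was called changed when its false discovery rate (FDR) was below 0.05 in both edgeR and DESeq2. Log2 fold changes (log2FC), standard errors (SE) and FDR come from the quasi-likelihood test of edgeR over all genes tested, with p-values adjusted by Benjamini-Hochberg. Read counts were not divided by gene length, so levels are compared between livers and not between genes.

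All 10 genes passed the filter on low counts. In cirrhosis against control, 5 of them were called, against 20.6% of the 13628 protein coding genes tested. Ghr, Igf1 and Igfals fell and Igfbp2 and Igfbp5 rose. The lower calls made up 6.72% and the higher calls 13.8% of all protein coding genes. With single livers left out, the count of 5 ran from 1 (Ghr, without control replicate 5) to 7 (without cirrhosis replicate 5, where 32.5% of protein coding genes were called). The share called in the other fits is not given here. These counts therefore do not show whether the 10 genes lose calls more readily than other genes. The median absolute log2FC was 1.21 for the 10 genes and 0.49 for all protein coding genes. Only Ghr and Igfbp5 had groups that did not overlap, 2 of 10 genes against 20.5% of protein coding genes. In cirrhosis & eplerenone against control, 0 of the 10 were called in both tools (5.33% of protein coding genes), although 6 had an unadjusted p under 0.05 in edgeR (20.9% of protein coding genes) and 2, Igfbp2 and Igfbp5, had an FDR under 0.05 in DESeq2 alone (10.8%). Ghr was the only 1 of the 10 whose groups did not overlap, against 11.1% of protein coding genes. In cirrhosis & eplerenone against cirrhosis, 0 were called by either tool, where 2 protein coding genes in all (0.0147%) were called in both. Ghr alone of the 10 had an unadjusted p under 0.05 in edgeR, against 14.5% of protein coding genes.

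**Figure D1:**
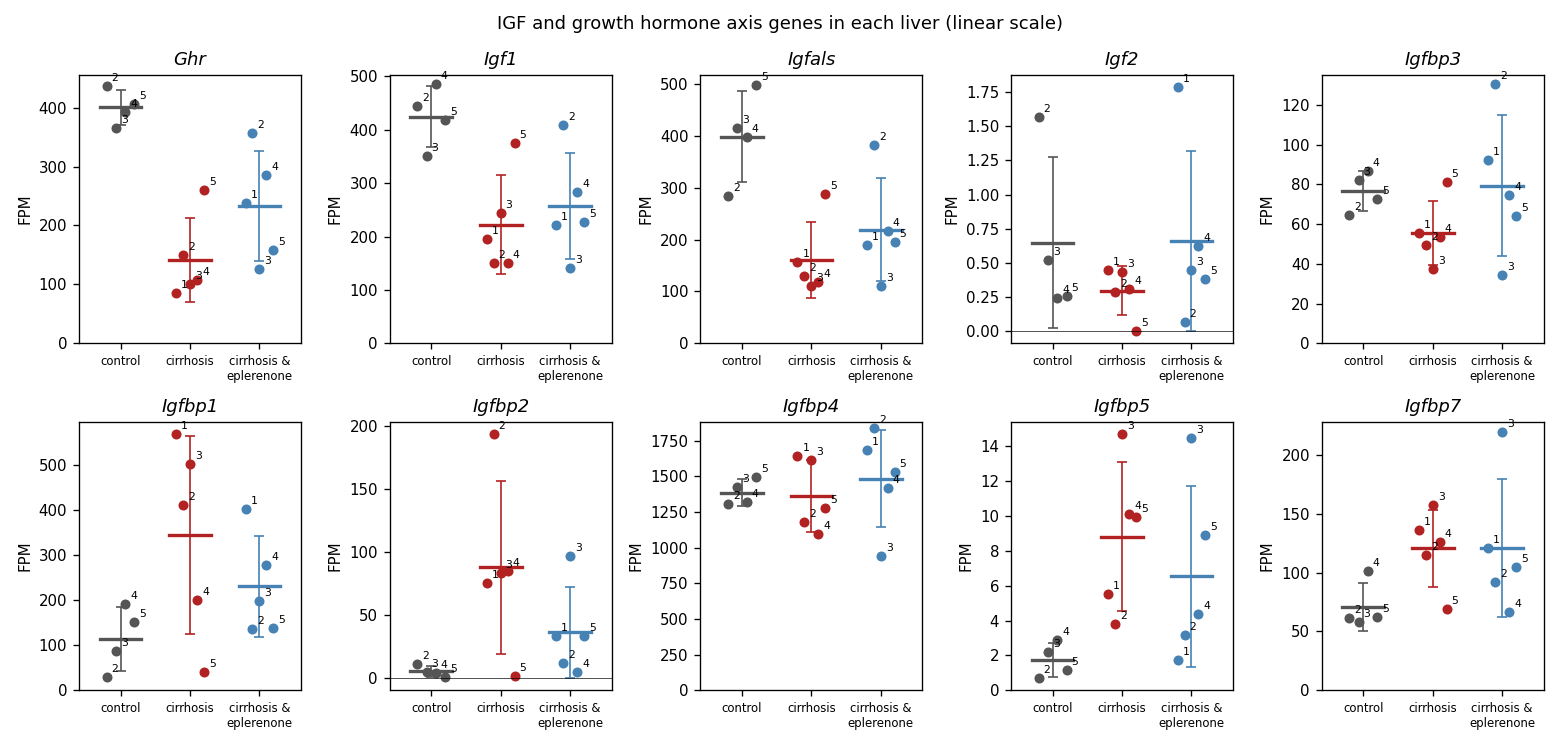
TMM-scaled levels (FPM, linear axis) of the 10 genes in each liver, with the replicate number beside each point. Thick bars are group means and thin bars the SD (control n = 4, cirrhosis n = 5, cirrhosis & eplerenone n = 5). Ghr lies between 366 and 437 FPM in control and between 85.5 and 261 FPM in cirrhosis, and cirrhosis replicate 5 lies nearer to control than the other cirrhosis livers in Ghr, Igf1, Igfals and Igfbp2.

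Ghr, the growth hormone receptor, had 437, 366, 392 and 406 FPM in control replicates 2 to 5. In cirrhosis replicates 1 to 5 it had 85.5, 151, 100, 108 and 261 FPM. In cirrhosis & eplerenone replicates 1 to 5 it had 238, 357, 126, 286 and 158 FPM. Every cirrhosis liver and every cirrhosis & eplerenone liver lay below the lowest control, while the treated groups overlapped each other. Control livers averaged 400 ± 29.6 FPM (SD, n = 4), cirrhosis livers 141 ± 71.1 (n = 5) and cirrhosis & eplerenone livers 233 ± 94.0 (n = 5). Cirrhosis was 2.84-fold below control (log2FC -1.51, SE 0.34, FDR 0.00784), and this call was kept whichever liver was left out. The value for cirrhosis & eplerenone against control was -0.78 (SE 0.33, FDR 0.194). Against cirrhosis it was 0.72 (95% confidence interval 0.05 to 1.40, FDR 0.328), a difference that did not pass the correction.

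Igf1, the growth factor that the liver releases under growth hormone, had 445, 349.9, 485 and 418 FPM in control replicates 2 to 5. In cirrhosis replicates 1 to 5 it had 195, 150, 244, 150 and 374 FPM. In cirrhosis & eplerenone replicates 1 to 5 it had 222, 408, 141, 284 and 227 FPM. Cirrhosis replicate 5 and cirrhosis & eplerenone replicate 2 lay within the control range and all other treated livers below it. Control livers averaged 424 ± 56.8 FPM (SD, n = 4), cirrhosis livers 222 ± 93.3 (n = 5) and cirrhosis & eplerenone livers 256 ± 99.0 (n = 5). Cirrhosis was 1.91-fold below control (log2FC -0.93, SE 0.31, FDR 0.0444). This call was close to the threshold and was kept in 4 of 14 fits that each left out 1 liver, where the log2FC lay between -1.20 and -0.81. It was kept without cirrhosis replicate 5, lost without any 1 of the control livers, and lost with total counts as library sizes (FDR 0.0539). The log2FC of cirrhosis & eplerenone was -0.73 (SE 0.31, FDR 0.187) against control and 0.20 (95% confidence interval -0.41 to 0.82, FDR 0.732) against cirrhosis.

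Igfals, the acid-labile subunit that stabilises IGF in the blood, had 283, 414, 398 and 497 FPM in control replicates 2 to 5. In cirrhosis replicates 1 to 5 it had 157, 130.0, 111, 118 and 288 FPM. In cirrhosis & eplerenone replicates 1 to 5 it had 189, 381, 111, 216 and 196 FPM. Cirrhosis replicate 5 stood apart from the other 4 cirrhosis livers and just above the lowest control, so that the groups overlapped in that pair alone. Control livers averaged 398 ± 88.0 FPM (SD, n = 4), cirrhosis livers 161 ± 73.3 (n = 5) and cirrhosis & eplerenone livers 219 ± 99.3 (n = 5). Cirrhosis was 2.48-fold below control (log2FC -1.31, SE 0.34, FDR 0.0163), a call lost only without control replicate 5 (FDR 0.0562). The log2FC of cirrhosis & eplerenone was -0.86 (SE 0.34, FDR 0.152) against control and 0.44 (95% confidence interval -0.23 to 1.12, FDR 0.489) against cirrhosis.

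The letters before the start sites of the genes that fell, and of Igfbp2, which rose, are shown because these genes moved together in opposite directions across the livers. The sequences are those of RefSeq (GRCr8, a later assembly than the rn6 used for counting), 250 bases upstream of 1 annotated start of each gene, 5' to 3' in the direction of transcription, with CpG dinucleotides in capitals. The starts of Ghr, Igf1 and Igfals shown here are not the outermost ones annotated, so other promoters of these genes are not covered.
Ghr, chr2:54432076-54432325, minus strand: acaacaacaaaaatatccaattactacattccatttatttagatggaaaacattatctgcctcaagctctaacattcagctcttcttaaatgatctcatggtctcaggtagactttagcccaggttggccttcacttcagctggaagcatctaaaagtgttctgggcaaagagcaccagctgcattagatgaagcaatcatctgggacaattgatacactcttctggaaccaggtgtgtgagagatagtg
Igf1, chr7:24172282-24172531, plus strand: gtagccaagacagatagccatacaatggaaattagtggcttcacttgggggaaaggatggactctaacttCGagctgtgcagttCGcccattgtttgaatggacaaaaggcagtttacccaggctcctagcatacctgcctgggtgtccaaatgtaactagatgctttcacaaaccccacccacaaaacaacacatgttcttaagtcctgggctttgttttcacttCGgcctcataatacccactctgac
Igfals, chr10:14403600-14403849, plus strand: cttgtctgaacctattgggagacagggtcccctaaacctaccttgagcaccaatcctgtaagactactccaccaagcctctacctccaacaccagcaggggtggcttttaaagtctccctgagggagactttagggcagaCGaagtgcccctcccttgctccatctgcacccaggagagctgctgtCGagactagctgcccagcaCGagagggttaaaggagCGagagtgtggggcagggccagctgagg
Igfbp2, chr9:81864561-81864810, plus strand: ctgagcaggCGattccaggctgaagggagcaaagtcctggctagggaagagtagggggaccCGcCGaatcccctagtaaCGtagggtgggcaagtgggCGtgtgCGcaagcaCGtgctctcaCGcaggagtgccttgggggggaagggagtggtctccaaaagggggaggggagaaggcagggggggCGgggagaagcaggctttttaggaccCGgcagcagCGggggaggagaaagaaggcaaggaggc
The Ghr window held 0 CpG, which 7.83% of 33469 promoter windows share, against a median of 5 over all windows. Igf1 had 3, Igfals 4 and Igfbp2 11. Among the other genes Igfbp5 had 8, Igfbp1 9, Igfbp4 21, Igfbp7 26 and Igfbp3 31, a count below which 95.3% of windows lie. The letters TTCNNNGAA, the core of a STAT5-type site and their own reverse complement, were found in 0 of 11 windows of 300 bases (250 before and 50 after the start) of the 10 genes, where Igf2 has a pair of windows. They were found in 8.87% of all windows and 4 times in that of Cish, a gene switched on by Stat5. No match says only that these letters are not in these windows.

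Igf2, the fetal growth factor that the adult rat liver hardly expresses, had between 0 and 35 counts per liver. The counts were 26, 9, 4 and 4 in control replicates 2 to 5, 8, 7, 8, 6 and 0 in cirrhosis replicates 1 to 5, and 35, 1, 11, 11 and 7 in cirrhosis & eplerenone replicates 1 to 5. The control mean rested mainly on replicate 2 and the cirrhosis & eplerenone mean on replicate 1. At this depth no difference was detectable (FDR 0.348, 0.988 and 0.481 in the 3 comparisons).

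Igfbp3, the binding protein of the ternary complex, had 64.4, 82.4, 86.8 and 72.6 FPM in control replicates 2 to 5. It had 55.5, 49.5, 37.4, 53.6 and 81.4 FPM in cirrhosis replicates 1 to 5, and 92.3, 130.4, 34.4, 74.8 and 64.3 FPM in cirrhosis & eplerenone replicates 1 to 5. Cirrhosis replicates 1 to 4 lay below all controls and replicate 5 among them, and cirrhosis & eplerenone held both the highest and the lowest of the 14 livers. The log2FC was -0.46 (SE 0.30, FDR 0.261) for cirrhosis against control, 0.05 (SE 0.30, FDR 0.953) for cirrhosis & eplerenone against control and 0.51 (SE 0.28, FDR 0.387) for cirrhosis & eplerenone against cirrhosis.

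Igfbp2, a binding protein of the fetal and fasting liver, had 10.6, 4.68, 3.30 and 0.64 FPM in control replicates 2 to 5. In cirrhosis replicates 1 to 5 it had 74.8, 193, 83.2, 84.9 and 1.61 FPM. In cirrhosis & eplerenone replicates 1 to 5 it had 33.3, 11.6, 96.3, 4.63 and 33.1 FPM. Cirrhosis replicates 1 to 4 lay above every control, while replicate 5 lay below 3 of the 4 controls. Control livers averaged 4.81 ± 4.22 FPM (SD, n = 4), cirrhosis livers 87.6 ± 68.5 (n = 5) and cirrhosis & eplerenone livers 35.8 ± 36.2 (n = 5). Cirrhosis was above control by a log2FC of 4.18 (SE 1.10, FDR 0.0177), and the call was lost without control replicate 3, 4 or 5, with an FDR of up to 0.0546. For cirrhosis & eplerenone against control the log2FC was 2.90 (SE 1.04, FDR 0.121 in edgeR and 0.0435 in DESeq2). Against cirrhosis it was -1.29 (SE 0.88, FDR 0.466).

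Igfbp5, a binding protein that also attaches to extracellular matrix, was the other gene that rose. It had 0.72, 2.20, 2.87 and 1.15 FPM in control replicates 2 to 5, and 5.55, 3.79, 14.7, 10.1 and 9.94 FPM in cirrhosis replicates 1 to 5. Cirrhosis & eplerenone replicates 1 to 5 had 1.74, 3.19, 14.5, 4.40 and 8.91 FPM. All cirrhosis livers lay above all controls, replicate 5 included, and 1 cirrhosis & eplerenone liver lay within the control range. The log2FC was 2.34 (SE 0.61, FDR 0.0172) for cirrhosis against control, a call lost only without control replicate 5 (FDR 0.0601). For cirrhosis & eplerenone it was 1.92 (SE 0.60, FDR 0.0791 in edgeR and 0.0115 in DESeq2) against control and -0.42 (SE 0.52, FDR 0.688) against cirrhosis. Igfbp2 and Igfbp5 are neighbours on chromosome 9 with 0 annotated genes starting between them, and so are Igfbp1 and Igfbp3 on chromosome 14.

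Igfbp1, which hepatocytes make and which insulin represses, had 30.0, 86.4, 191 and 151 FPM in control replicates 2 to 5. In cirrhosis replicates 1 to 5 it had 569, 412, 502, 201 and 40.2 FPM. In cirrhosis & eplerenone replicates 1 to 5 it had 402, 135, 198, 277 and 139 FPM. Cirrhosis replicates 1 to 4 lay above all controls and replicate 5 below 3 of them, and the control livers themselves spread widely. Control livers averaged 115 ± 71.01 FPM (SD, n = 4), cirrhosis livers 345 ± 219.7 (n = 5) and cirrhosis & eplerenone livers 230.3 ± 112 (n = 5). The log2FC of cirrhosis against control was 1.59 (SE 0.63) with an FDR of 0.0834 in edgeR and 0.0231 in DESeq2, so that Igfbp1 was not called. For cirrhosis & eplerenone it was 1.01 (SE 0.62, FDR 0.399) against control and -0.58 (SE 0.58, FDR 0.612) against cirrhosis.

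The Igfbp1 promoter is shown because it is the textbook case of an insulin response element. Capitals mark TGTTTTG, read on the opposite strand, and TATTTTG, a pair of cores that were looked for after the letters had been seen.
Igfbp1, chr14:86261027-86261276, plus strand: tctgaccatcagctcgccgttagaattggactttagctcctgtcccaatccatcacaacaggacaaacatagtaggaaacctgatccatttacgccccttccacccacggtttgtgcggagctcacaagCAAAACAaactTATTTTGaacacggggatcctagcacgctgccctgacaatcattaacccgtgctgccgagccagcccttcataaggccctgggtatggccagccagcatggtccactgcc
The first core lay 121 to 115 bases and the second 110 to 104 bases before the start. On either strand, TGTTTTG occurred in 6.28%, TATTTTG in 4.96% and both in 0.43% of all windows of 300 bases, and both occurred in 1 of the 11 windows of the axis, that of Igfbp1. The Igf1 window also held TGTTTTG, without TATTTTG.

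Igfbp4, a binding protein that hepatocytes make steadily, averaged 1386 ± 93.0 FPM (SD, n = 4) among control livers, 1361 ± 251 (n = 5) among cirrhosis livers and 1483 ± 340.0 (n = 5) among cirrhosis & eplerenone livers. Its log2FC was -0.03 (95% confidence interval -0.49 to 0.44) for cirrhosis against control, and the groups overlapped throughout. Igfbp7, a secreted relative with low affinity for IGF that is made by endothelial and stellate cells, had 61.6, 58.3, 101.1 and 62.5 FPM in control replicates 2 to 5. In cirrhosis replicates 1 to 5 it had 136, 115, 157, 126 and 69.0 FPM, and in cirrhosis & eplerenone 120.4, 92.2, 219.7, 66.6 and 104 FPM. Cirrhosis replicates 1 to 4 lay above all controls and replicate 5 among them. The log2FC was 0.77 against control in cirrhosis (SE 0.32, FDR 0.0934) and in cirrhosis & eplerenone (SE 0.32, FDR 0.178), and neither was called.

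**Figure D2:**
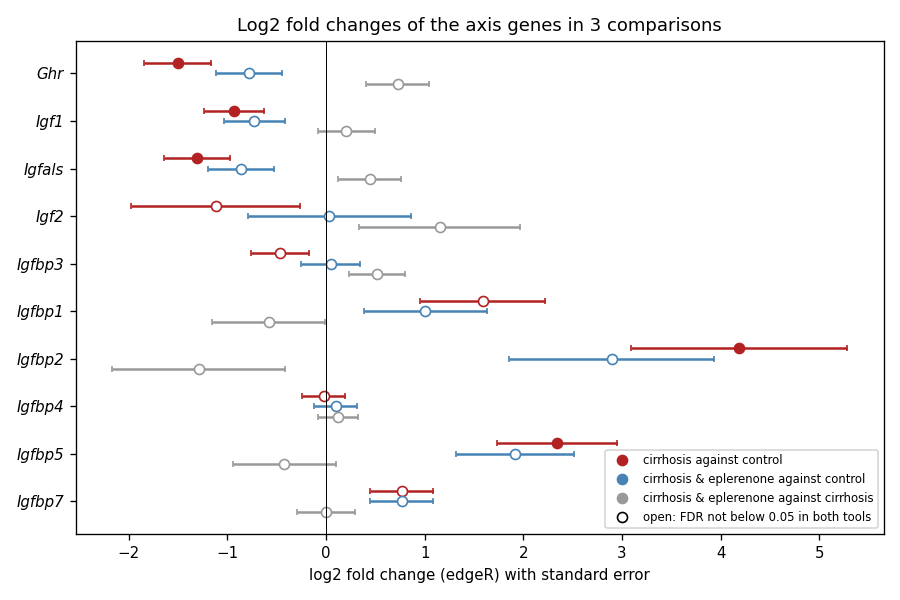
Log2 fold changes (points) with standard errors (bars) from edgeR for the 10 genes in 3 comparisons. Filled points have an FDR below 0.05 in both edgeR and DESeq2. The filled points are all in cirrhosis against control, Ghr, Igf1 and Igfals to the left of 0 and Igfbp2 (4.18) and Igfbp5 (2.34) to the right, and the comparisons share control or cirrhosis livers.

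The livers within a group differed widely along the axis. Cirrhosis replicate 5 was the cirrhosis liver nearest to the control mean in 7 of the 10 genes (Igf1, Ghr, Igfals, Igfbp2, Igfbp3, Igfbp4 and Igfbp7). Cirrhosis & eplerenone replicate 3 was the farthest liver of its group in 8 of the 10. It also had the highest TMM factor of all livers (1.40), and a higher factor lowers the FPM of every gene. It was the lowest of its group in Ghr, Igf1, Igfals, Igfbp3 and Igfbp4, but the highest in Igfbp2, Igfbp5 and Igfbp7. The part of the scaling in its place within the group was not tested. Without both of these livers, a set of 4 livers per group, 8 of the 9 genes then tested were called in cirrhosis against control (34.6% of protein coding genes), all but Igfbp4, while Igf2 did not pass the filter. In the same fit 4 of 9 were called in cirrhosis & eplerenone against cirrhosis, against 9.22% of protein coding genes. Ghr (log2FC 1.21, FDR 0.0184), Igfals (0.91, FDR 0.0392) and Igfbp3 (0.86, FDR 0.0298) were higher and Igfbp2 (-2.41, FDR 0.0433) was lower with eplerenone. The livers left out were the highest of cirrhosis and the lowest of cirrhosis & eplerenone in Ghr, Igfals and Igfbp3, and the lowest and the highest in Igfbp2, so this result depends on that choice. The 8 calls against control depend on it too, since the cirrhosis liver left out was the nearest to control in 7 genes. Leaving out cirrhosis replicate 5 alone gave 7 calls in cirrhosis against control (32.5% of protein coding genes) and 0 in cirrhosis & eplerenone against cirrhosis (0.184%).

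Across the 14 livers Igf1 rose and fell with Ghr and Igfals, with a Pearson r of log2 FPM of 0.86 for Igf1 and Ghr, 0.90 for Igf1 and Igfals and 0.90 for Ghr and Igfals. Igfbp2 ran opposite, with r of -0.82 with Ghr, -0.85 with Igf1 and -0.89 with Igfals. So did Igfbp7, with r of -0.80 with Ghr, -0.74 with Igf1 and -0.80 with Igfals. After the group means were taken off, r was 0.75 for Igf1 and Ghr, 0.80 for Igf1 and Igfals and -0.81 for Igfals and Igfbp2. It was -0.77 for Ghr and Igfbp7 and 0.87 for Igfals and Igfbp3. Igfbp5 was loosely tied to Igf1 within groups (r -0.15). These are descriptions over 14 livers that share libraries and scaling.

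**Figure D3:**
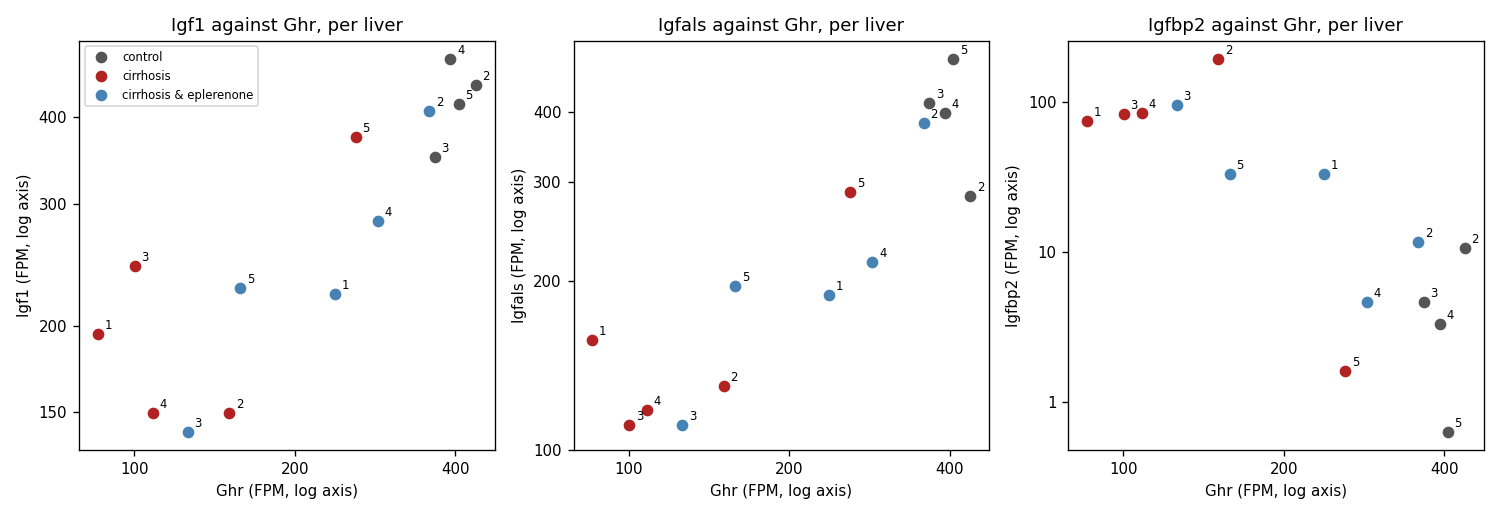
Igf1, Igfals and Igfbp2 against Ghr in each liver (FPM, both axes logarithmic), with replicate numbers. Livers with more Ghr had more Igf1 and Igfals and less Igfbp2 (r over 14 livers 0.86, 0.90 and -0.82), and cirrhosis replicate 5 lies towards the control livers.

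Of all protein coding genes tested, the patterns most like that of Igf1 over the 14 livers were those of Slc46a1 (r 0.96), Serpinc1, which encodes antithrombin (0.96), Mup4 (0.95), its copy Mup4.1 (0.95) and Proz (0.95), a protein of blood coagulation. For Ghr they were Gphn, Tmem33 and Slc19a2 (0.98 each), and for Igfals Snx24 (0.98), Tpst1 (0.97) and Lonp2 (0.96). Igfbp2 was most like Dzip1l, Acot9 and Anxa13 (0.95, 0.95 and 0.94), and Igfbp3 was like Rab3ip (0.95) and Sdhaf2 (0.92). Igfbp4 was most like Agt (angiotensinogen, 0.90), Cyp2e1 (0.90) and RGD1310587 (0.88), Igfbp7 most like Pdk3 (0.94), Spindoc (0.92) and Anxa1 (0.92), Igfbp1 most like Ldb3 (0.91), Aldh1b1 (0.89) and Fam234b (0.88), and Igfbp5 most like Fkbp11 (0.92), Ncs1 (0.90) and Psat1 (0.89). For Igf2, near its floor, the highest r was 0.80, with Ap4b1, and Chn1 (0.77) and Cfap298 (0.76) followed.

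The genes that carry or receive the signal were listed from general knowledge, 37 in all, of which 28 were tested. The list was drawn up with earlier results of these data known, so its shares are descriptions and not an independent test. In cirrhosis against control 9 of the 28 were called, against 20.6% of protein coding genes. Of these, 8 were lower (6.72% of protein coding genes) and 1 higher (13.8%), and the median log2FC was -0.62 against -0.01 for all protein coding genes. With total counts as library sizes 4 of the 28 were called, and with single livers left out 3 (without cirrhosis replicate 3) to 11. The shares of all protein coding genes called in these fits are not given here. The calls of Stat5b and Akt2 were kept in all 14 fits that left out 1 liver, that of Stc1 in 13 (lost without control replicate 4) and that of Pik3r1 in 11 (lost without control replicate 2 or 3 or cirrhosis replicate 3). Those of Irs1, Stat5a and Insr were kept in 8, 7 and 7 fits, each lost without control replicates 3 and 5 and cirrhosis replicates 1, 3 and 4, and further without control replicate 2 (Irs1, Insr), control replicate 4 (Stat5a, Insr) and cirrhosis replicate 2 (Stat5a). In growth hormone signalling 2 of 10 fell, against 6.72% of protein coding genes. Stat5b, the main carrier of the growth hormone signal in male liver, went from 31.9 ± 7.77 FPM (SD, n = 4) to 13.4 ± 5.16 FPM (SD, n = 5), with groups that did not overlap (log2FC -1.25, SE 0.29, FDR 0.00951). Stat5a fell by 0.61 on the log2 scale (SE 0.19, FDR 0.0359), and Jak2, the receptor's kinase, gave 0.24 (FDR 0.377). The feedback inhibitors that Stat5 induces were not called. Socs2 gave -2.00 (SE 0.68, FDR 0.0502) and Cish -1.13 (SE 0.87, FDR 0.351), and Socs2 ranged from 12.0 to 213 FPM among the control livers alone. Socs3 gave -1.67 (FDR 0.0734).

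Among the receptors and adaptors of IGF and insulin, 3 of 8 tested fell, against the same 6.72%. Insr, the insulin receptor, had 25.9 to 38.9 FPM in control and 9.32 to 18.9 FPM in cirrhosis (log2FC -1.04, SE 0.33, FDR 0.0372). Irs1, the docking protein of both receptors, fell by 1.51 on the log2 scale (SE 0.45, FDR 0.0301) and the adaptor Grb14 by 0.53 (SE 0.18, FDR 0.0462). The call of Grb14 was kept in 3 of 14 fits that left out 1 liver, and lost without any 1 of the controls or of cirrhosis replicates 1, 2, 3 and 5, and without cirrhosis & eplerenone replicate 1, 2 or 5. Irs2 gave -0.63 (FDR 0.402). Igf1r, the IGF1 receptor, did not pass the filter and was at most 0.41 FPM in any liver. In the kinase and transcription factor relay 2 of 6 fell (6.72% of protein coding genes), Pik3r1, the regulatory subunit of PI3 kinase (log2FC -1.21, FDR 0.0205), and Akt2, the insulin-responsive Akt of liver (-1.002, FDR 0.00926). Akt1 gave -0.01 (FDR 0.963) and Pik3ca -0.04 (FDR 0.855), and Foxo1 and Foxo3 gave -0.99 and -1.08 without a call. Igf2bp3, an RNA-binding protein named for Igf2 mRNA, fell by 2.40 (SE 0.82, FDR 0.0499), just under the threshold. Its call was kept in 4 of 14 fits that left out 1 liver, those without control replicate 2, cirrhosis replicate 5 and cirrhosis & eplerenone replicates 2 and 3, and the log2FC lay between -3.45 (without cirrhosis replicate 5) and -2.09 (without cirrhosis replicate 3). Stc1, an inhibitor of the proteases that cleave binding proteins, was called higher (FDR 0.0180), with 0 to 0.17 FPM in control, at or under the floor, and 0.11 to 1.59 FPM in cirrhosis. Igfbp6, another binding protein, gave 1.70 (SE 0.67, FDR 0.0820).

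In cirrhosis & eplerenone against control only Stat5a was called of the 28, against 5.33% of protein coding genes, with a log2FC of -0.72 (SE 0.19, FDR 0.0417). This call was kept in 3 of 14 fits that left out 1 liver, those without cirrhosis replicate 3, cirrhosis replicate 5 and cirrhosis & eplerenone replicate 4. It was lost with total counts, with no filter, with 10 counts in every sample, with only the 2 groups compared, with 4 livers per group and with the replicate block (FDR 0.0567 to 0.191). Stat5b gave -0.56 (FDR 0.293), Insr -0.08 (FDR 0.932), Akt2 -0.20 (FDR 0.697) and Pik3r1 -0.42 (FDR 0.532). In cirrhosis & eplerenone against cirrhosis 0 were called by edgeR or by DESeq2, and 7 had an unadjusted p under 0.05 in edgeR, which 14.5% of protein coding genes had. Akt2 (0.80, FDR 0.312) and Foxo3 (1.43, FDR 0.312) were higher in every cirrhosis & eplerenone liver than in any cirrhosis liver, 2 of 28 genes against 0.947% of protein coding genes whose groups did not overlap.

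**Figure D4:**
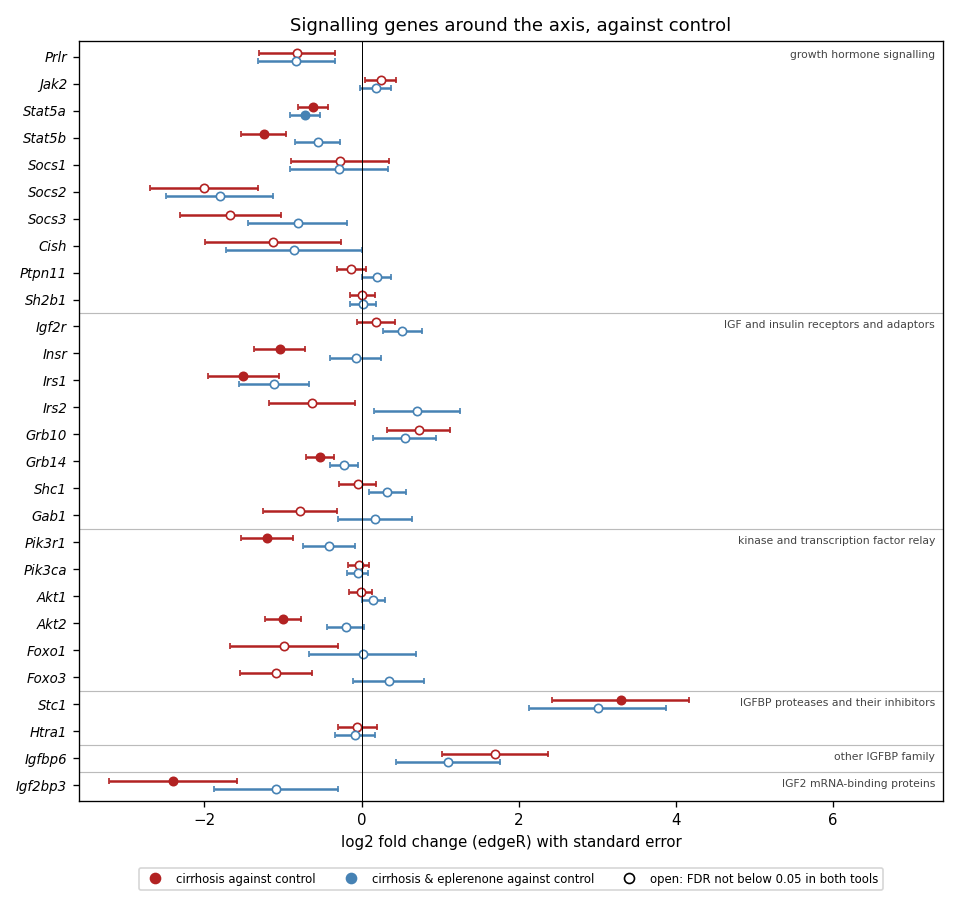
Log2 fold changes with standard errors (edgeR) of 28 signalling genes around the axis, grouped by role, for cirrhosis (red) and cirrhosis & eplerenone (blue) against the same 4 controls. Filled points have an FDR below 0.05 in both tools, 9 for cirrhosis and 1, Stat5a, for cirrhosis & eplerenone.

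Growth hormone is released in pulses in male rats and more evenly in females, and the pattern sets which sex-biased genes the liver expresses. Of 4 male-biased genes tested 1 was called lower in cirrhosis, against 6.72% of protein coding genes. This was Bcl6 (log2FC -1.84, SE 0.47, FDR 0.0153), which was also lower in cirrhosis & eplerenone against control (-1.81, SE 0.47, FDR 0.0369). The first call was lost without control replicate 4 alone, and the second was kept in 6 of 14 fits that left out 1 liver and lost without any 1 of the controls. Cyp2c11, the main male cytochrome, had 1512 to 2198 FPM in control and 3.06 to 1184 FPM in cirrhosis without overlap, and was not called (log2FC -2.89, SE 1.57, FDR 0.191). Hsd3b5 gave -2.02 (FDR 0.124), again without overlap, so 2 of the 4 did not overlap, against 20.5% of protein coding genes. Cyp2c13 gave -1.07 (FDR 0.208) with groups that overlapped. Of 6 female-biased genes tested 1 rose (13.8% of protein coding genes) and 2 fell (6.72%), so the list did not move in 1 direction. Cyp2c12 rose (log2FC 2.73, SE 0.88, FDR 0.0408). Its call was kept in 6 of 14 such fits and lost without any 1 of the controls or of cirrhosis replicates 1 to 4. Cyp2a1 (-1.10, FDR 0.00400) and Srd5a1 (-2.37, FDR 0.00365) fell. For Cyp2c12, Cyp2a1 and Srd5a1 the groups did not overlap either, against the same 20.5% of protein coding genes. Cyp2c7 (-0.98, FDR 0.190), Cux2 (0.47, FDR 0.790) and A1bg (0.69, FDR 0.685) were not called. Srd5a1 was also lower in cirrhosis & eplerenone against control (-2.42, FDR 0.00874). In that comparison 2 of the 10 sex-biased genes tested were called, against 5.33% of protein coding genes. The counting took multi-mapping reads at every place, so values of Cyp2c genes, which have close copies, are uncertain.

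Whole liver was sequenced, so fewer cells of a type and less RNA per cell cannot be told apart. Of 8 hepatocyte markers 1, Hnf4a, was called lower in cirrhosis (log2FC -0.81, FDR 0.0290), against 6.72% of protein coding genes. The log2FC was negative for 6 of the 8. It was positive for Apoa1 (0.74, FDR 0.182) and for Tf (0.59, FDR 0.133), whose groups did not overlap. The summed level of the 8 was 164480 to 194087 FPM in control, 133266 to 183993 FPM in cirrhosis and 102283 to 188168 FPM in cirrhosis & eplerenone. Most of this sum is Alb and Tf, which moved in opposite directions. Mean Alb was 122797 FPM in control and 79392 FPM in cirrhosis, and mean Tf 32571 and 48878 FPM. The lowest sum was that of cirrhosis & eplerenone replicate 3 and the highest in cirrhosis that of replicate 5. Beside the rise of Igfbp2 and Igfbp5, 6 of 9 stellate cell and myofibroblast markers and 5 of 5 cholangiocyte markers rose in cirrhosis, against 13.8% of protein coding genes. The other 3 stellate markers were not called, Pdgfrb with a log2FC of 0.65 (FDR 0.0814), Lrat, the enzyme with which resting stellate cells store vitamin A, with -1.09 (FDR 0.118) and Reln with -1.002 (FDR 0.110). Summed stellate markers had 149 to 258 FPM in control, 292 to 532 FPM in cirrhosis and 396 to 516 FPM in cirrhosis & eplerenone, and cholangiocyte markers 12.8 to 19.4, 42.4 to 100.0 and 34.0 to 88.0 FPM. The largest part of the stellate sum was Col3a1, with means of 125, 216 and 293 FPM in these groups. In cirrhosis & eplerenone against cirrhosis 6 of the 9 stellate markers had a negative and 3 a positive log2FC, and 0 were called. Of the endothelial markers 2 of 6 were called, Vwf higher and Kdr lower, of the macrophage markers 1 of 6, Cd163 lower, and of the lymphocyte markers 3 of 5, all higher. Of all protein coding genes 20.6% were called in either direction, close to the share of the macrophage markers. In no group was a marker at 0 in all livers, and the part of these cells in the results above was not tested.

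The animal labels begin with 15 or 20 in the CCl4-treated rats and with 13 or 16 in the controls, and what the numbers stand for is not given in the sources used here. Any difference between these label groups and the CCl4 treatment cannot be told apart. Among the CCl4-treated livers both prefixes occur with and without eplerenone. With prefix 15 the log2FC of cirrhosis & eplerenone against cirrhosis was 1.38 for Ghr, 1.08 for Igfals, 1.20 for Igfbp3, 0.66 for Igf1 and -2.40 for Igfbp2. With prefix 20 it was 0.07, -0.19, -0.20, -0.25 and 0.06 for the same genes. For the other genes tested, Igfbp1, Igfbp4, Igfbp5 and Igfbp7, it was -0.90, 0.23, -1.73 and -0.38 with prefix 15. With prefix 20 these genes gave 0.77, 0.15, -0.08 and 0.44. The difference between prefixes, tested as an interaction, passed the correction for 0 of the 9 genes tested and for 0 of 13795 genes in all, while 1689 had an unadjusted p under 0.05. Igfbp3 (FDR 0.380) was the only one of the 9 with an unadjusted p under 0.05. Prefix 20 holds both cirrhosis replicate 5 and cirrhosis & eplerenone replicate 3.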

How the data were processed

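Poly(A) RNA of whole liver was sequenced from both ends with reads of 150 bp. The authors mapped reads to rn6 with HISAT2 2.1.0 and counted them over exons with featureCounts, counting multi-mapping reads at each place, and deposited raw counts per gene, with no normalization or filter. Whether strand was used is not given in the sources used here. Genes were kept with filterByExpr of edgeR (smallest count 10), which left 14417 genes, 13628 of them protein coding. TMM factors lay between 0.847 and 0.877 in the controls and between 0.925 and 1.40 in the CCl4-treated livers, so the scaling differed with treatment. A single model over the 3 groups was run in edgeR 4.0.16 (quasi-likelihood test) and in DESeq2 1.42.0 (Wald test) under R 4.3.3, with Benjamini-Hochberg adjustment over all genes tested. A gene was called with an FDR below 0.05 in both and the same sign. Shares and medians are over protein coding genes. Log2 FPM for correlations used a prior count of 2.

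Control replicate 1 was not analysed here. Groups and replicate numbers come from the sample labels. Replicates are separate rats, and the pair of libraries of a group that differed least had a chi-square of 25.0 per degree of freedom. The 10 genes, the gene lists and the tests were chosen with earlier results of these data known. Named genes are all 10 genes, the called genes of the signalling and sex-biased lists and others whose role is described, and the most similar genes (5 for Igf1, 3 for the others), of which 1 for Igfbp3 is not reported here. The steps were tested on simulated data for cirrhosis against control (13399 genes), where 78% and 80% of genes changed 4-fold up and down and 22% and 30% of those changed 2-fold were recovered. Only 50 genes were changed by each of these amounts, a far smaller part than the 20.6% of protein coding genes called in the data. An FDR threshold is stricter when few genes change, so these shares cannot be carried over to the data. A missing call does not show that a gene was unchanged. Alternatives changed the tool, scaling, filter, samples and terms of the fit.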

Additional observations from a re-analysis of the deposited data

Results flagged for a closer look

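In 30 sets of a gene and a group, 2 livers lay apart from the rest of their group by the ratio of gap to range, where chance alone gives about 1 in 20 sets. Igfals in cirrhosis replicate 5 had 288 FPM, while the other 4 cirrhosis livers had 111 to 157 FPM, a gap of 0.74 of the range. Igfbp7 in control replicate 4 had 101.1 FPM, while the other 3 controls had 58.3 to 62.5 FPM, a gap of 0.90 of the range.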

How the results depend on the processing

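Of 271 log2FC values of the 10 genes under settings other than leaving out single livers, 243 kept their direction and call, 14 gained a call, 2 lost one (Igf1 with total counts and with the replicate block) and 12 turned sign. In the main fit only 5 genes were called, all in cirrhosis against control. Most of the values that stayed the same were therefore without a call in both fits, and only calls of these 5 genes could be lost. No value that turned sign was called, and the cause was not tested. For Igfbp4 in cirrhosis against control these were 0.0018 in DESeq2 alone and with RLE size factors, 0.25 with total counts, 0.032 with 10 counts in every sample and 0.017 with 4 livers per group. For Igfbp7 in cirrhosis & eplerenone against cirrhosis they were -0.0175 in DESeq2, -0.0174 with RLE, -0.0019 with 10 counts in every sample, -0.50 with 4 livers per group and -0.018 with the replicate block, which also turned Igf2 (-0.32) and Igfbp3 (-0.098) in cirrhosis & eplerenone against control. Total counts in place of TMM moved the median log2FC of all genes in cirrhosis against control to 0.28, so Igfbp4 lay at about that median. Of the 10 genes, cirrhosis & eplerenone against control gave 2 calls in DESeq2 alone and 1 (Igfbp5) with total counts. With 4 livers per group, 8 of 9 genes tested were called in cirrhosis against control (34.6% of protein coding genes). In cirrhosis & eplerenone against cirrhosis 4 were called (9.22%). That fit left out cirrhosis replicate 5, nearest to control in 7 of the 10 genes, and cirrhosis & eplerenone replicate 3, farthest in 8. Both counts therefore depend on that choice of livers. Of the 28 signalling genes, cirrhosis against control gave 4 calls with total counts and 5 with 10 counts in every sample. Cirrhosis & eplerenone against control gave 2 in DESeq2 alone and 0 with no filter, with 10 counts in every sample, with only the 2 groups compared and with 4 livers per group. Cirrhosis & eplerenone against cirrhosis gave 5 with 4 livers per group, with the same livers left out (9.22% of protein coding genes).

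Among the alternative fits, shares of all protein coding genes called are given here only without cirrhosis replicate 5 and with 4 livers per group. For the others, a change in the count cannot be set against that of all genes. Each of the 14 livers was left out in turn. Of the 10 genes, 1 (Ghr, without control replicate 5) to 7 (without cirrhosis replicate 5) were called in cirrhosis against control, 0 to 2 (without cirrhosis & eplerenone replicate 2) in cirrhosis & eplerenone against control and 0 in cirrhosis & eplerenone against cirrhosis. Without control replicate 3 or 4 the first count was 3. Of the signalling genes, 3 (without cirrhosis replicate 3) to 11 (without cirrhosis & eplerenone replicate 3), 0 to 2 and 0 were called, and the call of Stat5a in cirrhosis & eplerenone was among those lost. The log2FC ran from -0.090 to 0.058 for Igfbp4 in cirrhosis against control, from -0.24 to 0.94 for Igf2 and from -0.20 to 0.24 for Igfbp3 in cirrhosis & eplerenone against control, and from -0.026 to 0.47 for Igf1 and from -0.35 to 0.15 for Igfbp7 in cirrhosis & eplerenone against cirrhosis.

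Replicate numbers are shared between groups only as numbers. Of 13 pairs of livers with the same number, 3 had deviations from the group means that correlated above 0.1 (r from -0.33 to 0.20), so they were not taken as pairs. With the replicate number as a block, 4 of the 10 genes were called in cirrhosis against control, 1 (Igfbp5) in cirrhosis & eplerenone against control and 0 in cirrhosis & eplerenone against cirrhosis, and 0 of the signalling genes were called in cirrhosis & eplerenone against control. The depth limits Igf2, Igf1r and Stc1, which lie near the floor of 3 counts in several livers.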
